A study of Mus musculus with 24 samples.

Results

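Chromatin at 6 matrix metalloproteinase genes and 3 genes of their tissue inhibitors was described in 3 kinds of cultured mouse fibroblasts, with and without the transcription factor Prrx1. The members were Mmp2, Mmp3, Mmp9, Mmp11, Mmp13, Mmp14, Timp1, Timp2 and Timp3, chosen by name as the secreted and membrane-type proteases of activated fibroblasts and their inhibitors. They are 9 of the 22225 protein-coding symbols of the annotation. Each gene was read as its body with 10 kb on each side, a window of 24.6 kb (Timp1) to 74.7 kb (Timp2).

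Matrix metalloproteinases are zinc enzymes that are made as inactive precursors and cut collagens, other matrix proteins and growth-factor carriers outside the cell. Mmp2 and Mmp9 are the gelatinases, Mmp3 and Mmp11 the stromelysins, Mmp13 a collagenase, and Mmp14 a membrane-anchored enzyme that activates pro-Mmp2 at the cell surface. The Timp proteins bind the active site of these enzymes, and Timp2 also joins Mmp14 and pro-Mmp2 in the activating complex. Trimethylation of histone H3 at lysine 4 (H3K4me3) marks promoters in use, and acetylation at lysine 27 (H3K27ac) marks promoters and enhancers in use.

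The fibroblasts were mouse embryonic fibroblasts (MEF) of C57BL/6 embryos taken at embryonic day 10 to 13, cancer-associated fibroblasts (MMTV-CAF) grown out of the breast tumours of FVB/NJ mice with the MMTV-PyMT transgene, in which the mammary tumour virus promoter drives the polyoma middle T antigen, and fibroblasts from dorsal skin wounds of C57BL/6 mice at day 10. Every line overexpressed HPV E6/E7, which makes primary cells divide without limit. MMTV-CAF alone were FVB/NJ, so that type and strain cannot be told apart there. SG cells had Prrx1 deleted with Cas9 and a guide RNA, and the control guide sgNS stands for WT; whether the WT MEF carried it is not stated. KI MEF were read as cells of the Prrx1tm1Jfm mutant, with lacZ inserted in the homeodomain, since the labels do not spell KI out. That mutant was backcrossed to C57BL/6. Whether a line is 1 clone or a pool is not given. Of 24 samples, 17 had a peak list: H3K4me3 and H3K27ac in each of the 7 combinations of type and genotype, and PRRX1 in the WT cells of each type.

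Every group had 1 library, so there is no replicate check, and the values below describe single lists with no p-value. For H3K27ac and PRRX1 each entry is a summit of 1 bp whose −log10 p against the control is called its score here, and for H3K4me3 each entry is a region with a width and a fold over input. The H3K27ac lists held 29325 to 61603 summits, the H3K4me3 lists 13125 to 29166 regions and the PRRX1 lists 3048 (MEF), 8000 (MMTV-CAF) and 5698 (wound). MEF KI had the lowest median H3K27ac score, 11.9 against 18.5 in MEF WT, whereas the lowest median −log10 p of H3K4me3 regions, 7.51, was in MMTV-CAF WT (9.93 in MEF KI). In MEF KI, the summed score per gene was 0.314 times that of WT at the median of all genes. Ratios are therefore given relative to the median of all genes, which on the log2 scale was -1.67 for H3K27ac and -0.33 for width in MEF KI, 0.25 to 0.60 and -0.09 to 0.18 in the 3 SG comparisons, and -0.94 to 0.33 and -0.47 to 0.40 between WT types. Of 9 fibroblast markers, 5 to 8 had an H3K4me3 region over a transcription start site (TSS), against 0 or 1 of 6 epithelial, 0 or 1 of 4 endothelial and 0 of 4 leukocyte markers. H3K27ac summits were listed at 7 to 9 of the fibroblast markers and also at 1 to 3 of the epithelial, 1 to 3 of the endothelial and 1 to 3 of the leukocyte markers in every list. Krt8 had 5 and 8 summits and Pecam1 7 and 7 in WT and SG MMTV-CAF, while the defining markers Epcam and Ptprc had neither mark in any list. Whether other cell types add to the members' values was not tested. The Prrx1 gene itself carried an H3K4me3 region of 4558 to 15484 bp in all 7 lists, so the lists do not check the deletion.

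The 3 MMTV-CAF WT lists stood apart over 1 stretch of chromosome 9, and this stretch holds Mmp3 and Mmp13. Between 6 and 8.5 Mb (mm9) they contained 187 of the 8000 PRRX1 summits, against 1 in MEF and 5 in wound fibroblasts. The stretch is 0.0942% of the genome and took 2.34% of the MMTV-CAF PRRX1 list. All 5 of its 500-kb bins were among the 10 fullest bins of that list, and the fullest held 73 summits where no bin elsewhere held more than 34. H3K27ac summits numbered 210 there in MMTV-CAF WT against 20 to 44 in the other 6 lists, and H3K4me3 regions 71 against 10 to 16. MMTV-CAF SG, the same fibroblast type, had 25 and 14. For H3K27ac and H3K4me3, 0 of the 5 bins were among the 10 fullest of the MMTV-CAF WT lists, and the best ranked 12 and 75. The stretch was noticed after the values were seen, and its part in the values of Mmp3 and Mmp13 was not tested.

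**Figure D1:**
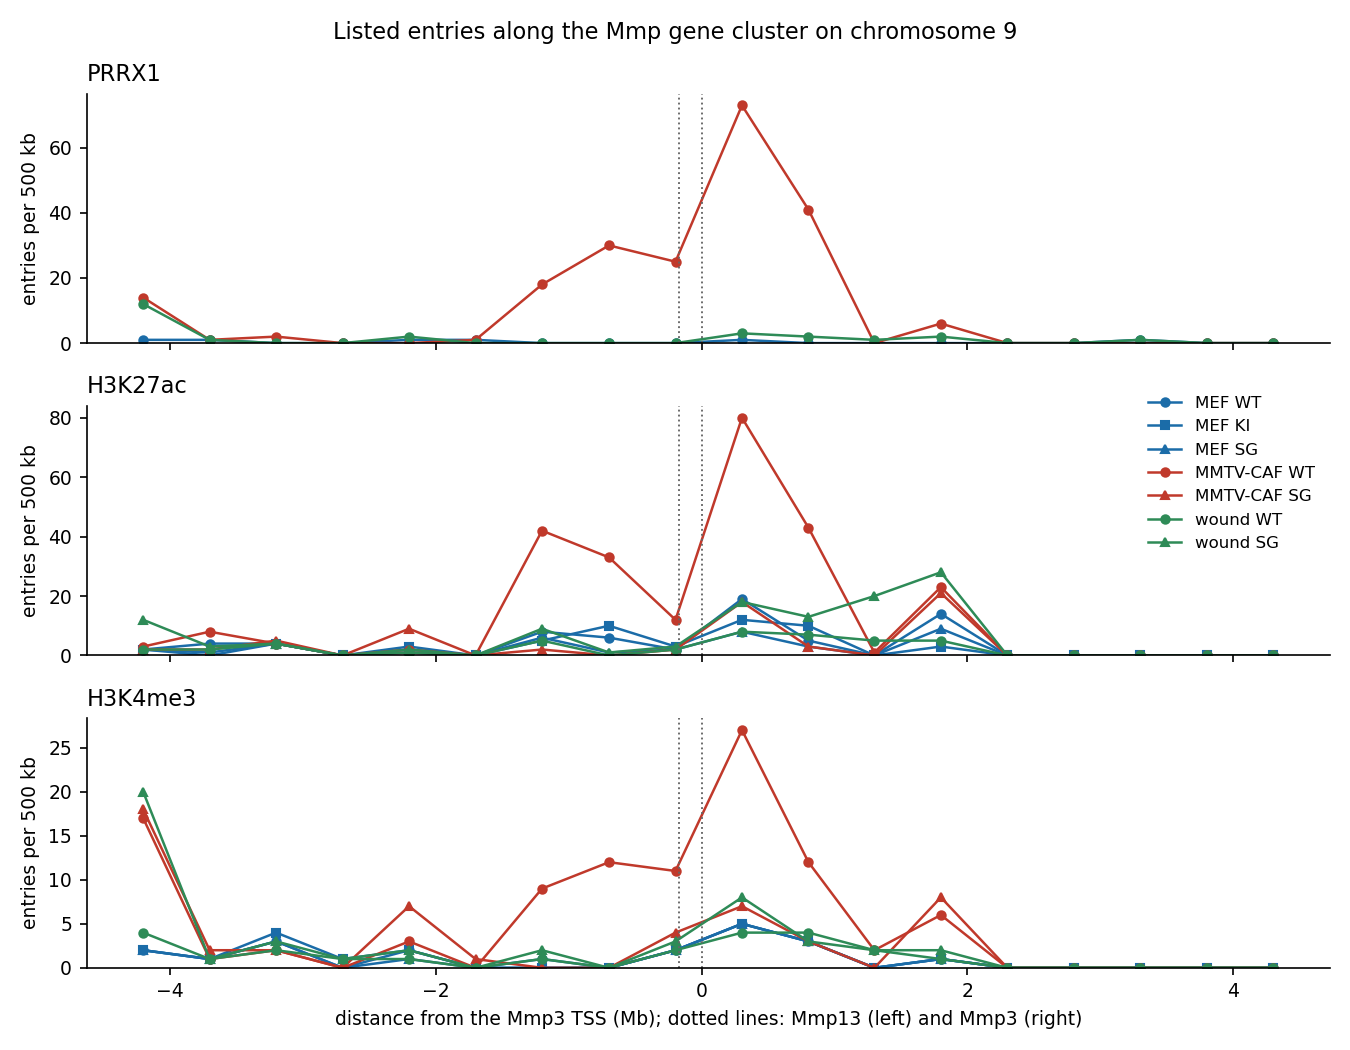
Listed entries per 500-kb bin (y axis) along chromosome 9 by distance from the Mmp3 TSS in Mb (x axis), for PRRX1, H3K27ac and H3K4me3, 1 line per list. The MMTV-CAF WT lines stand highest over the bins around Mmp13 and Mmp3, to 73 PRRX1 summits and 80 H3K27ac summits in the fullest bin, while the MMTV-CAF SG lines stay near those of MEF and wound fibroblasts.

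Chromatin at the gelatinase gene Mmp2 differed between the lists. Mmp2 (ENSMUSG00000031740.7) lies on the plus strand of chromosome 8 from 95351227 to 95377316. In MEF its H3K4me3 region over the TSS was 1739 bp wide in WT (fold over input 4.5) and 1549 bp in SG. In KI no region covered the TSS, although one of 957 bp began 127 bp from it. In MMTV-CAF the WT list had only a 227-bp region 165 bp from the TSS, and the SG list a 1591-bp region over it with a fold of 11.5. In wound fibroblasts the WT region of 1331 bp lay 64 bp from the TSS and the SG region of 1868 bp covered it. Thus a covering region was listed in SG and not in WT of both these types, whereas in MEF it was listed in WT and SG and not in KI.

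H3K27ac at Mmp2 also differed widely between lists. The window held 5, 0 and 6 summits in WT, KI and SG MEF, 4 and 19 in WT and SG MMTV-CAF, and 5 and 3 in WT and SG wound fibroblasts. The summed score was 129, 0 and 205 in MEF, 46.9 and 427 for MMTV-CAF, and 52.3 and 27.4 in wound fibroblasts. MMTV-CAF SG was the highest of all 7 lists and MEF KI the lowest, listed at 0. Relative to the median of all genes, the score was 7.67-fold higher in MMTV-CAF SG than in WT and 2.9-fold lower in wound SG than in WT. All 4 MMTV-CAF WT summits had an SG summit within 500 bp, and 15 of the 19 SG summits had none in WT. Those 19 stretched from 6.44 kb upstream of the TSS to 22.7 kb into the gene, with the highest scores at 11944 bp (52.5), 162 bp (48.2) and 9625 bp (45.1) from the TSS. Around Mmp2, within 1.25 Mb on either side and outside its window, MMTV-CAF SG listed 68 summits and WT 38, and the part of this in the Mmp2 value was not tested.

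**Figure D2:**
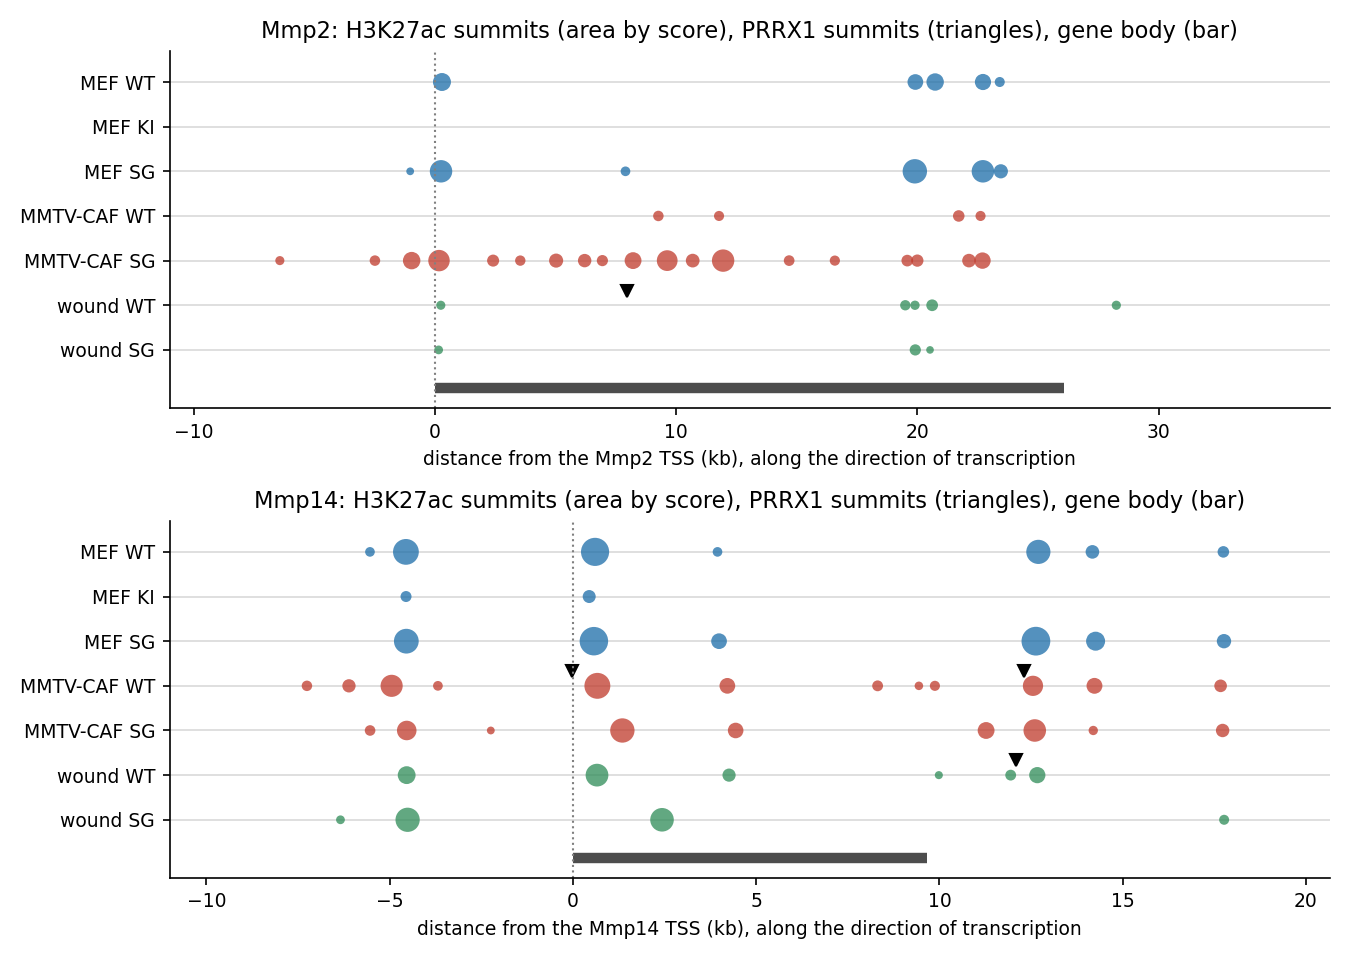
H3K27ac summits at Mmp2 and Mmp14 by distance from the TSS in kb (x axis) in each of the 7 lists (rows), with the area of a point proportional to its score, PRRX1 summits of the same WT cells as black triangles and the gene body as a grey bar. At Mmp2 the MEF KI row is empty and the MMTV-CAF SG row has 19 points where MMTV-CAF WT has 4. At Mmp14 the MEF KI row has points near 2 of the 7 positions of MEF WT, and the wound SG row has none near 12.6 kb.

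A PRRX1 summit was listed at Mmp2 only in wound fibroblasts, in an intron 7.97 kb from the TSS with a score of 9.11 (rank 1141 of 5698). The nearest H3K27ac summit in the same WT cells was 7734 bp away, while MEF SG and MMTV-CAF SG had one within 76 and 238 bp. The bases around this summit (chr8:95359148-95359248, mm9, plus strand) shown because this is the only PRRX1 site of the gene, hold neither of the motifs searched, TAATTA of homeodomain factors and TGANTCA of AP-1, where N is any base. Both motifs read the same on either strand and do not overlap each other.
Mmp2 intron: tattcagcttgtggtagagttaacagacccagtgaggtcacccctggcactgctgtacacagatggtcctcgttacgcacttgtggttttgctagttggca

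Mmp9 (ENSMUSG00000017737.2, plus strand of chromosome 2, 164766280 to 164781350), the other gelatinase, was nearly bare. An H3K4me3 region covered one of its 4 TSS only in MMTV-CAF SG, with 1009 bp and a fold of 3.43. H3K27ac summits were listed only in MMTV-CAF, 1 in WT (summed score 8.39) and 4 in SG (59.1). Of these, 2 in SG lay 6676 and 7110 bp from the first TSS, both within 1 kb of another annotated TSS of Mmp9. The others lay more than 19 kb from the first TSS. The TSS of a neighbour, Slc12a5, lies in the same window, and the whole WT score of 8.39 and 38.8 of the SG score came from summits within 1 kb of it. No PRRX1 summit was listed at Mmp9.

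The stromelysin gene Mmp3 (ENSMUSG00000043613.7, plus strand of chromosome 9, 7445822 to 7455972) carried marks in MMTV-CAF WT and almost none elsewhere. Its H3K4me3 region over the TSS was 1362 bp wide with a fold of 2.25 in that list. MMTV-CAF SG had a region of 383 bp close to the TSS and not over it, and in the other 5 lists the nearest region was over 149 kb away. The single H3K27ac summit of the gene stood 141 bp past the TSS in MMTV-CAF WT, with a score of 25.3. In the same list a PRRX1 summit stood 9 bp before the TSS with a score of 12.1 (rank 1003 of 8000) and a second in an intron at 7.65 kb with 9.65. The next H3K27ac summit to the TSS site in any other list was 126557 bp away or farther.

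The collagenase gene Mmp13 (ENSMUSG00000050578.9, plus strand of chromosome 9, 7272514 to 7283333) had entries in the MMTV-CAF WT lists and in no other. It held 3 H3K27ac summits, at -1519, -513 and 363 bp from the TSS, with scores of 7.56, 25.3 and 12.5 (45.4 in sum, above the 25.3 of Mmp3), and a 246-bp H3K4me3 region 13 bp from the TSS with a fold of 1.56. A PRRX1 summit lay 2.18 kb upstream with a score of 5.19. Both genes lie in the dense stretch described above, and what it adds to these entries was not tested.

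Both promoters hold an AP-1 motif, shown in capitals in the 100 bases before each TSS. The sequences are from RefSeq on GRCm38.p6, at chr9:7445722-7445821 for Mmp3 and chr9:7272414-7272513 for Mmp13, plus strand. The motif starts 46 bases before the Mmp3 TSS and 35 bases before the Mmp13 TSS. In mm9 the Mmp3 motif was centred 34 bp from the PRRX1 summit. Of 32851 promoters in the table, 6.75% held TGANTCA in the 250 bases before the TSS and 4.84% held TAATTA. Promoters of Mmp11, Mmp14, Timp1, Timp2 and Timp3 held neither, and none of the 7 members matched held TAATTA. Mmp2 and Mmp9 were not matched in the table.
Mmp3 promoter: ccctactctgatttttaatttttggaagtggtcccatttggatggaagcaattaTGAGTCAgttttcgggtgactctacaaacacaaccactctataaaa
Mmp13 promoter: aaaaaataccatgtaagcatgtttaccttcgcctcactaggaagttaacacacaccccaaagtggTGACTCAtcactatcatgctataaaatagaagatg

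Mmp11 (stromelysin-3, ENSMUSG00000000901.8, minus strand of chromosome 10, 75385967 to 75400678) was marked in all 3 types. Its widest H3K4me3 region over any of 6 TSS was 2635 bp in MEF WT and 1046 bp in MEF SG, 4137 and 3548 bp in WT and SG MMTV-CAF, and 2332 and 1302 bp in WT and SG wound fibroblasts. In MEF KI no region covered a TSS and one of 553 bp lay 22 bp from it. The region was thus narrower in MEF SG and MEF KI than in MEF WT under both ways of reading the TSS. In wound SG a wider region of 2933 bp lay within 1 kb of a TSS, so the narrower value there depends on the region chosen. H3K27ac summits numbered 5, 5 and 3 in WT, KI and SG MEF, 10 and 12 for MMTV-CAF, and 3 and 5 in wound fibroblasts. The summed score was 199, 85.3 and 224 in MEF, 329 and 355 for MMTV-CAF, and 105 and 191 in wound fibroblasts, and no list pair of WT and deleted cells was called. Its window also holds the TSS of Smarcb1, Chchd10, Gm867 and Vpreb3, and 37.4 to 204 of the summed score came from summits within 1 kb of those. A PRRX1 summit of low score, 5.42, was listed in MMTV-CAF at 6.68 kb upstream of the annotated gene start at 75400678, in an intron of Vpreb3. The H3K4me3 region of MMTV-CAF WT covered a TSS farther into the gene, from 75391782 to 75395918.

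Mmp14 (ENSMUSG00000000957.8, plus strand of chromosome 14, 55050441 to 55060095) had an H3K4me3 region over its TSS in all 7 lists, and its width varied least among the metalloproteinases. It was 4106, 3444 and 3786 bp in WT, KI and SG MEF, 5356 and 4904 bp in WT and SG MMTV-CAF, and 4336 and 4715 bp in WT and SG wound fibroblasts. These widths stood at the 86.8th to 93.7th percentile of genes with a region in the same list. In MEF KI, Mmp14 and Timp1 alone had a region over the TSS.

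H3K27ac at Mmp14 was less even. The window held 7, 2 and 6 summits in WT, KI and SG MEF, 12 and 9 in WT and SG MMTV-CAF, and 6 and 4 in WT and SG wound fibroblasts, with summed scores of 267, 30.3 and 321, of 304 and 257, and of 152 and 138. The KI score was 2.76-fold below WT after centring on all genes, and the other pairs of WT and deleted cells lay within 2-fold. A site 4.55 kb upstream was present in all 7 lists, and it lies within 1 kb of the TSS of the neighbour Mrpl52. Summits at other genes' TSS made up 12.7 (MEF KI) to 79.4 (MEF WT) of the summed score of Mmp14. A site 12.6 kb from the TSS, beyond the end of the gene, was present in 5 lists and missing in MEF KI and wound SG. Beside it a PRRX1 site lay 12.1 to 12.3 kb from the TSS, in wound fibroblasts with a score of 8.31 and in MMTV-CAF with 5.8. H3K27ac summits stood 194 and 283 bp from it in these WT cells, 332 bp away in MMTV-CAF SG and 5630 bp away in wound SG. A further PRRX1 summit stood 35 bp before the TSS in MMTV-CAF with a score of 7.82. The shared site is shown as its wound summit (chr14:55062529-55062629, mm9, plus strand), with the TAATTA motif in capitals. The MMTV-CAF summit, 131 bp away, has no TAATTA within 100 bp.
Mmp14 downstream: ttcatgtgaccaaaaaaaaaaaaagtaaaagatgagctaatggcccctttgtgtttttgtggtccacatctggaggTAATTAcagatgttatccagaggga

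The inhibitor gene Timp1 (ENSMUSG00000001131.5, plus strand of the X chromosome, 20447292 to 20451861) lies within Syn1. Its H3K4me3 region was 3712 and 3045 bp in WT and KI MEF, 5068 and 5386 bp in WT and SG MMTV-CAF, and 3800 and 3633 bp in WT and SG wound fibroblasts. In MEF SG a region of 2627 bp ended 9 bp from the TSS, so this list counts as having none over it. H3K27ac summits ranged only from 3 to 6. The summed score was 148, 46 and 97.2 in WT, KI and SG MEF, 89.9 and 145 for MMTV-CAF, and 70.9 and 87.8 in wound fibroblasts. MEF SG was 2.05-fold below WT after centring, just past the 2-fold limit. A site 256 bp past the TSS was present in all 7 lists. No PRRX1 summit was listed at Timp1.

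Timp2 (ENSMUSG00000017466.3, minus strand of chromosome 11, 118162383 to 118217054) had the widest H3K4me3 region of any member. The width was 3460 and 3434 bp in WT and SG MEF, 8866 and 4029 bp in WT and SG MMTV-CAF, and 4690 and 3515 bp in WT and SG wound fibroblasts. In MEF KI a region of 2097 bp lay 199 bp from the TSS. MMTV-CAF WT was thus the widest, at the 97.7th percentile of genes in that list, and 2.12-fold wider than SG after centring. The wound pair differed by 1.51-fold in the same direction, at the edge of the limit. The H3K27ac values had another order. Timp2 had 10, 10 and 15 summits in WT, KI and SG MEF, 19 and 22 in MMTV-CAF, and 13 in each wound list. The summed scores were 326, 127 and 462, then 457 and 524, then 237 and 284, and none was called.

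Timp2 also held the strongest PRRX1 site of the members. It lies 9.6 kb upstream of the gene, between genes, and was listed in all 3 types at summits within 26 bp of each other. Its score was 7.89 in MEF (rank 1696 of 3048), 58.9 in MMTV-CAF (rank 20 of 8000) and 29.4 in wound fibroblasts (rank 47 of 5698). H3K27ac summits of the same WT cells stood 579, 328 and 555 bp away. In the deleted cells they stood 258 bp (MEF KI), 578 bp (MEF SG), 257 bp (MMTV-CAF SG) and 2262 bp (wound SG) away. The bases around the MMTV-CAF summit (chr11:118226634-118226734, mm9, plus strand) contain the AP-1 motif TGACTCA, in capitals, and no TAATTA. A second site in an intron, 28.7 kb from the TSS, was shared by MMTV-CAF (7.6) and wound fibroblasts (6.32) and has a TAATTA in capitals at its MMTV-CAF summit (chr11:118188332-118188432). It is shown for contrast and was chosen after its values were seen.
Timp2 upstream: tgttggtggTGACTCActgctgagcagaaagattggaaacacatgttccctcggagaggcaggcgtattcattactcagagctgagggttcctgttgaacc
Timp2 intron: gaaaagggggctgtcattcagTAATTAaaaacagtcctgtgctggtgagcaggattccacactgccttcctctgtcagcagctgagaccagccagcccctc

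Timp3 (ENSMUSG00000020044.7, plus strand of chromosome 10, 85763117 to 85812251), whose product stays bound to the matrix, lies within Syn3. Its H3K4me3 region was 3304 and 2929 bp in WT and SG MEF, 4051 and 4751 bp in WT and SG MMTV-CAF, and 3919 and 3503 bp in WT and SG wound fibroblasts. In MEF KI a region of 2017 bp began 4 bp from the TSS. H3K27ac summits numbered 11, 5 and 13 in WT, KI and SG MEF, 17 and 24 for MMTV-CAF, and 14 and 19 in wound fibroblasts, with summed scores of 247, 60.1 and 294, of 327 and 498, and of 222 and 295. No pair of WT and deleted cells was called for either mark, except the KI width. Sites 6.62 and 38.9 kb from the TSS were present in all 7 lists. A PRRX1 site in an intron about 28 kb from the TSS was found in all 3 types, with scores of 8.22 (MEF), 5.69 (MMTV-CAF) and 9.36 (wound). The nearest H3K27ac summit in the same WT cells was 3295 bp away in MEF, 667 bp in MMTV-CAF and 1103 bp in wound fibroblasts. Of the other PRRX1 summits, a wound summit 9.6 kb from the TSS (score 4.5) had 2 TAATTA and 1 TGANTCA within 100 bp. An MMTV-CAF summit at 27.4 kb (4.64) had neither. Neither motif lies within 100 bp of the wound summit near 28 kb, shown as the second site found in every type (chr10:85791081-85791181, mm9, plus strand).
Timp3 intron: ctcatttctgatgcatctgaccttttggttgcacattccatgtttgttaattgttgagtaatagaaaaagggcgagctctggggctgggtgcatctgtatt

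**Figure D3:**
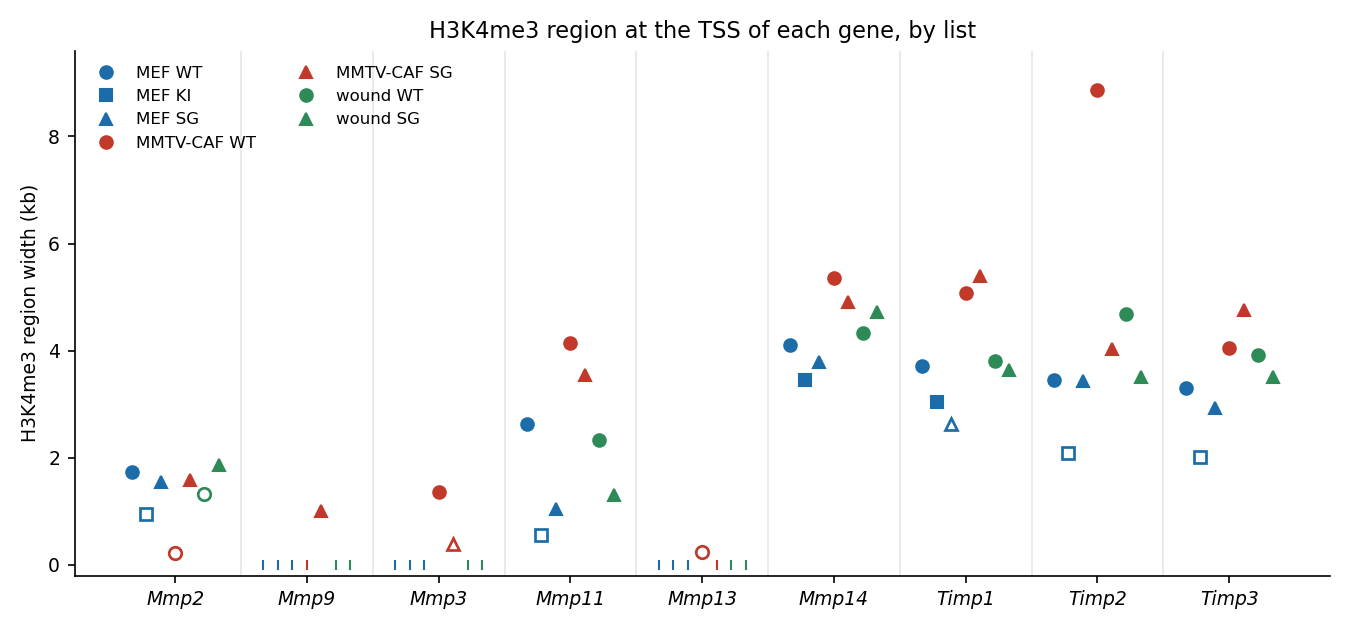
Width of the H3K4me3 region at the TSS in kb (y axis) for each gene (x axis) in the 7 lists; filled points cover a TSS, open points lie within 1 kb of one, and ticks at 0 mark lists with neither. Timp2 in MMTV-CAF WT reaches 8866 bp, Mmp14 is filled in all 7 lists, and 4 of the filled MEF WT points have an open MEF KI point below them.

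Between WT and Prrx1-mutant cells, the members called differed from type to type, and Mmp2 was the member called most often. A gene was called where its H3K4me3 width differed by at least 1.5-fold, or its summed H3K27ac score by at least 2-fold, after centring on all genes, and a gene with no entry in 1 of the lists counted as narrower or lower there. A member with an entry in only 1 of the lists was tested through that list alone, so its call could go only one way, and such calls describe presence and not a change in size. This holds for all 4 width calls and the Mmp2 H3K27ac call in MEF KI, and for the width calls of Timp1 in MEF SG, of Mmp2, Mmp3 and Mmp9 in MMTV-CAF SG and of Mmp2 in wound SG. In MEF KI, 4 of 6 members with a region were narrower (Mmp2, Mmp11, Timp2 and Timp3), beside 31.1% of all genes tested, and 0 were wider, beside 1.87%. This count rests on regions that stop short of the TSS: with regions within 1 kb of a TSS, Mmp11 alone was narrower, 1 of 6 beside 26% of all genes in either direction, and 6 members had a region in MEF WT and in KI. For H3K27ac in MEF KI, 2 of 6 members were lower (Mmp2 and Mmp14), beside 20.1%, and 0 were higher, beside 10.9%. Mmp14, with 7 summits in WT and 2 in KI, was tested only because WT had at least 3 summits.

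In MEF SG, 2 of 6 members were narrower (Mmp11 and Timp1), beside 7.59% of all genes, and 0 wider, beside 1.65%. Timp1 was not called with regions within 1 kb. For H3K27ac 1 of 6 was lower (Timp1), beside 5.5%, and 0 higher, beside 5.04%. Timp1 was not called with 25-kb flanks, by the number of summits or without centring, at 0 of 6 members each. The 2 Prrx1 mutants of MEF share the same WT lists, and Mmp11 width was the one value called in both.

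In MMTV-CAF SG, 2 of 8 members were wider (Mmp2 and Mmp9), beside 8.8% of all genes, and 2 narrower (Mmp3 and Timp2), beside 7.09%. For H3K27ac 2 of 8 were higher (Mmp2, 7.67-fold, and Mmp9, 5.93-fold), beside 9.51%, and 1 lower (Mmp13), beside 5.66%. Mmp13 was tested only through its 3 summits in MMTV-CAF WT, here and between the WT types, so it could only be called with that list as the higher one. With scores of at least 10 it was not tested, and 0 of 7 members were lower. The Mmp9 value compares summits that lie mostly at the Slc12a5 TSS, and Mmp9 was tested only because SG had at least 3 summits. Without Mmp3 and Mmp13, the genes in the dense stretch, 3 of 7 members were called by width, beside 15.9% of all genes in either direction, and 2 of 7 by H3K27ac, beside 15.2%.

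In wound SG, 1 of 6 members was wider (Mmp2), beside 9.03%, and 2 narrower (Mmp11 and Timp2), beside 5.44%, and with regions within 1 kb of a TSS only Timp2 was called, 1 of 6 beside 15.1% in either direction. For H3K27ac 1 of 6 was lower (Mmp2), beside 4.56%, and 0 higher, beside 9.48%. That call was not made without centring, by the number of summits or with scores of at least 10, at 0 members each. Over the members with entries in both lists, the median centred log2 ratio was 0.06, -0.07, -0.07 and -0.34 for width and -0.01, -0.17, 0.36 and -0.32 for H3K27ac, each time in the order MEF KI and then SG in MEF, MMTV-CAF and wound, where centring sets the median of all genes to 0. These medians leave out the members with no entry in 1 of the lists.

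**Figure D4:**
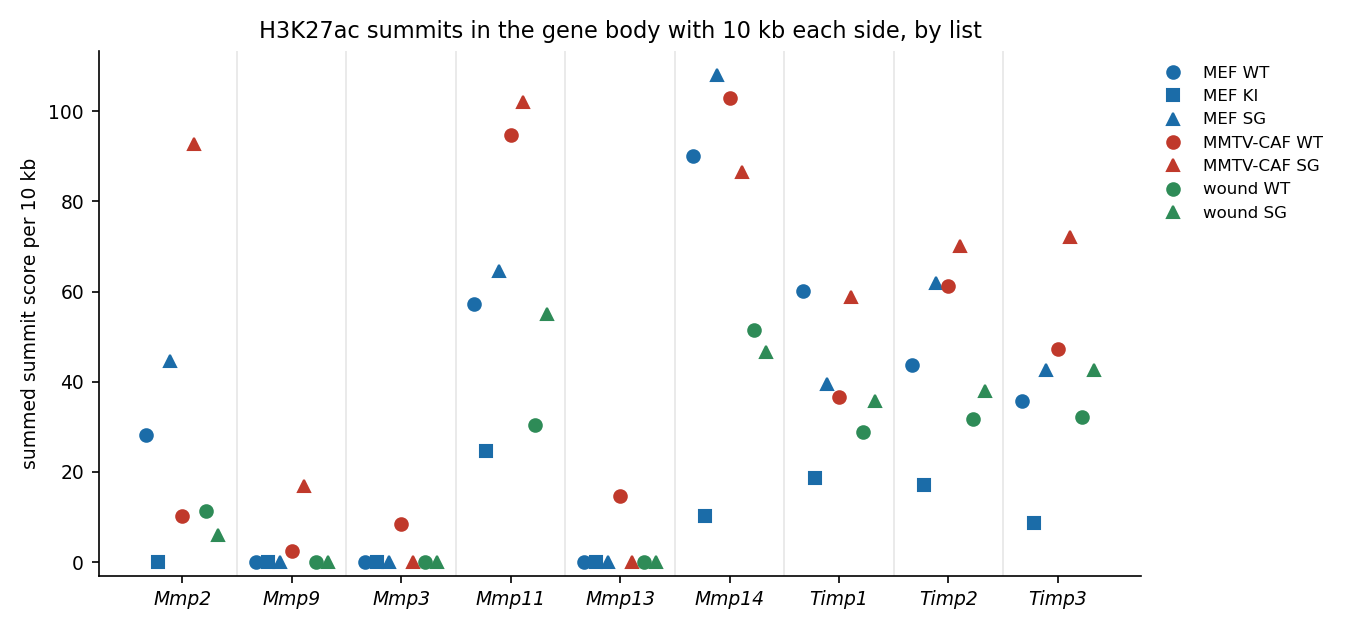
Summed H3K27ac summit score per 10 kb of gene window (y axis) for each gene (x axis) in the 7 lists. Mmp2 in MMTV-CAF SG stands at 92.7 against 10.2 in MMTV-CAF WT, the MEF KI points are the lowest of the MEF points for each gene with any, and Mmp3, Mmp9 and Mmp13 lie at 0 outside MMTV-CAF.

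Single H3K27ac sites were also compared. In MEF KI, 19 of the 42 WT summits in the members' windows had a summit within 500 bp, or 45.2% (Wilson 95% interval 31.2 to 60.1, counting error only), beside 44.3% of all WT summits. In MEF SG it was 33 of 42 (78.6%, 64.1 to 88.3), beside 68.2%. In MMTV-CAF SG it was 48 of 71 (67.6%, 56.1 to 77.3), beside 63.9%, and in wound SG 25 of 45 (55.6%, 41.2 to 69.1), beside 67.7%. At 500 bp all 4 intervals include the share of the whole list. Within 1 kb the share in wound SG was 31 of 45 (68.9%), beside 83.9% of all WT summits, and no interval is given for it. Single genes spread more widely. Of the WT summits, 0 of 5 at Mmp2 were present in MEF KI and 4 of 5 in wound SG, while at Mmp14 it was 2 of 7 and 1 of 6, and at Timp2 6 of 10 and 5 of 13.

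H3K27ac summits stitched within 12.5 kb and ranked by summed score gave strong clusters, an approximation of super-enhancers. A cluster past the slope-1 point of the ranked curve overlapped the window of Timp2 in all 7 lists, Mmp11 in 6, Mmp14 and Timp3 in 5 and Mmp2 in 2, and of the other members in none. The share of all genes whose window meets such a cluster was not counted, so these counts have no background. The windows of Timp2 and Timp3 are the longest, at 74.7 and 69.1 kb, beside a median of 35.5 kb for all genes. The Timp2 cluster ranked 141, 86 and 143 in the WT lists of MEF, MMTV-CAF and wound fibroblasts. Mmp2 had a strong cluster in MEF SG (rank 1194) and MMTV-CAF SG (rank 180, 26 summits over 52.6 kb), and its cluster in MMTV-CAF WT ranked 9659. The Mmp14 cluster was not past that point in MEF KI (rank 4326, against 330 in WT) and in wound SG (rank 1825, against 552 in WT). The lists held 670 (MEF KI) to 1391 (wound SG) strong clusters, so the point falls at different ranks.

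The WT cells of the 3 types were compared in the same way, and the width calls of Mmp2 and Mmp3 again rest on a region in 1 of the lists alone and could go only one way. From MEF to MMTV-CAF, Mmp3 and Timp2 were wider and Mmp2 narrower, 2 and 1 of 7, beside 12.1% and 10.4% of all genes. H3K27ac was higher at Mmp13 and lower at Mmp2 (3.47-fold) and Timp1 (2.07-fold), 1 and 2 of 7, beside 8.9% and 8.94%. No member was higher with scores of at least 10 or with lists of equal size, at 0 of 6 each, 0 of 7 were lower by the number of summits, and 1 of 7 was lower with 25-kb flanks or without centring. From MEF to wound fibroblasts, Mmp2 was narrower and none wider, 1 and 0 of 6, beside 6.91% and 9.72%, and it was not called with regions within 1 kb of a TSS. For H3K27ac no member of 6 was called higher or lower, beside 5.41% and 14.1%. From MMTV-CAF to wound fibroblasts, Mmp3 was narrower and none wider, 1 and 0 of 6, beside 11.8% and 13.3%. With regions within 1 kb of a TSS, 5 of 8 members were called from MEF to MMTV-CAF (4 wider, 1 narrower), beside 24% of all genes in either direction, and 4 of 8 from MMTV-CAF to wound fibroblasts (1 wider, 3 narrower), beside 27%. Mmp2 was higher (2.13-fold) and Mmp13 lower for H3K27ac, 1 and 1 of 7, beside 5.71% and 13.9%. The Mmp2 scores were 46.9 and 52.3, and no member was called higher without centring, by the number of summits, with 25-kb flanks or with scores of at least 10. Without Mmp3 and Mmp13, this last pair had 0 of 5 members called by width, beside 25.2% in either direction, and 1 of 6 by H3K27ac, beside 19.6%.

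PRRX1 summits were listed at 2 of 9 members in MEF (Timp2 and Timp3), beside 7.06% of all genes, at 6 of 9 in MMTV-CAF, beside 22.1%, and at 4 of 9 in wound fibroblasts (Mmp2, Mmp14, Timp2 and Timp3), beside 16.8%. The windows of the members had a median of 34.7 kb and those of all genes 35.5 kb. Leaving out Mmp3 and Mmp13, MMTV-CAF had 4 of 7 members with a summit. With lists of equal size MMTV-CAF had 3 of 9, beside 9.87% of all genes, and wound fibroblasts 4 of 9, beside 9.97%. In the full lists there were 2, 10 and 7 summits at the members. With a score of at least 10 there remained 0, 2 and 1, at 0, 2 and 1 of 9 members. The share of all genes with such a summit was 2.99%, 5.62% and 2.91%. The median score of the whole lists was 8.41, 6.94 and 6.32. TAATTA was found within 100 bp of 69.1%, 35.4% and 41.9% of all PRRX1 summits in MEF, MMTV-CAF and wound fibroblasts, and TGANTCA within 100 bp of 12.9%, 18.2% and 13%.

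**Figure D5:**
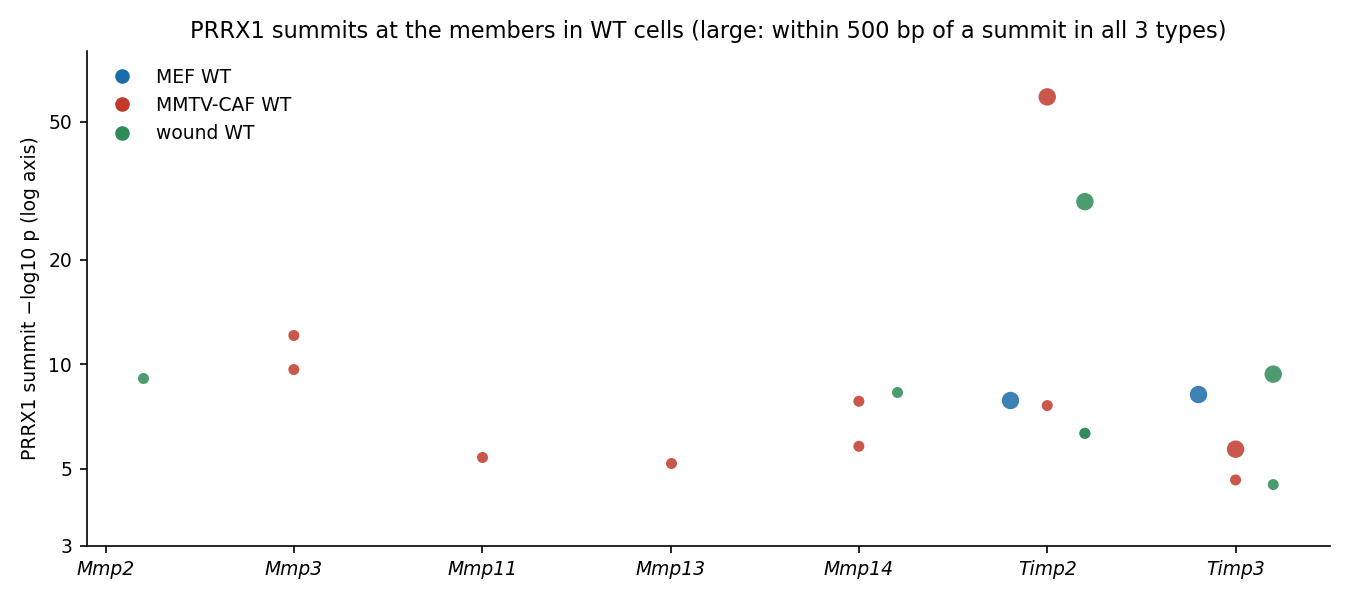
Score (−log10 p, log axis) of each PRRX1 summit in the window of the members that have one (x axis), in the WT cells of the 3 types (colours); large points lie within 500 bp of a summit in every type. The Timp2 site stands at 58.9 in MMTV-CAF and 29.4 in wound fibroblasts, Mmp3 follows at 12.1, and Timp2 and Timp3 alone have large points.

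A list of 38 other genes of pericellular proteolysis (further Mmp, Adam and Adamts genes, the plasminogen activators and their inhibitors, Reck, Timp4 and Fap) was read in the same way. In MEF KI 8 of 25 were narrower and 0 wider, beside 31.1% and 1.87% of all genes, and 5 of 20 had lower and 4 higher H3K27ac, beside 20.1% and 10.9%. In MEF SG 4 of 25 were narrower and 0 wider, beside 7.59% and 1.65%, and 2 of 20 lower and 1 higher, beside 5.5% and 5.04%. In MMTV-CAF SG 5 of 26 were narrower and 2 wider, beside 7.09% and 8.8%, and 4 of 25 lower and 1 higher, beside 5.66% and 9.51%. The lower genes included Mmp8 and Mmp27 of the dense stretch of chromosome 9, each with an SG score of 75.2. Mmp27 was also among the narrower genes. In wound SG 1 of 25 was narrower and 1 wider, beside 5.44% and 9.03%, and 2 of 22 lower and 1 higher, beside 4.56% and 9.48%. Serpine2, an inhibitor of thrombin and of plasminogen activators, was called most often, in 11 of its 14 comparisons. Its H3K4me3 width was 793 bp in MMTV-CAF WT and 2944 bp in SG, 1206 bp in wound WT and 2411 bp in SG, and 2299 bp in MEF WT and 1404 bp in MEF SG. Like Mmp2 it was wider in MMTV-CAF SG and wound SG. Its H3K27ac score was 9.91 and 105 in WT and SG MMTV-CAF and 0 and 49.6 in WT and SG wound fibroblasts, whereas that of Mmp2 was lower in wound SG.

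PRRX1 summits were listed at 4, 17 and 8 of these 38 genes in MEF, MMTV-CAF and wound fibroblasts, beside 7.06%, 22.1% and 16.8% of all genes. The most, 8, were at Mmp8, the neutrophil collagenase gene, all in MMTV-CAF. Mmp8 is one of 8 genes of the list inside the dense stretch of chromosome 9, and without them 10 of 30 had a summit in MMTV-CAF.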

How the data were processed

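ChIP-seq peak lists of 17 of the 24 samples were used, without the 7 inputs. Per the labels and methods, reads passed through Trimmomatic, Bowtie (mm9), Picard duplicate removal and MACS2 with input as control; IgG is also named as a control of the PRRX1 ChIP, and which one served its lists was not settled here. The deposited H3K27ac and PRRX1 lists give a −log10 p-value per 1-bp summit, and the deposited H3K4me3 lists give regions with a fold over input (a ratio), a −log10 p-value and a −log10 q-value, and a display score that the authors' caller made from the q-value and that was not used. The PRRX1 ChIP is described as duplicated, and whether lists pool duplicates is not stated; these lists go down to a −log10 p of 3, below the stated cutoff. Depth is unknown. Genes came from GENCODE vM1 on NCBIM37, with 0 intervals beyond a chromosome end. For each gene the widest H3K4me3 region over any TSS and the summits in the body with 10 kb each side were taken; genes tested had a region in either list, or at least 3 summits in one. The members and lists were chosen with earlier results of these data known. Named genes were the members and those of the further list called at least 2 times or with the most PRRX1 summits. The calls were tested on simulated data. Tools were pandas 2.3.3, numpy 2.4.6, scipy 1.17.1 and matplotlib 3.10.9 under Python 3.11.15. Alternatives are in the closing section.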

Additional observations from a re-analysis of the deposited data

Results flagged for a closer look

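At Mmp2 the KI list of MEF and the SG lists of the other types stood on opposite sides of their WT lists in H3K4me3 width, and the SG lists of MMTV-CAF and wound fibroblasts did so in H3K27ac. Its H3K4me3 region over the TSS was absent in MEF KI (0 bp, against 1739 bp in WT) and present in MMTV-CAF SG (1591 bp, against 0 bp) and wound SG (1868 bp, against 0 bp). Its summed H3K27ac score was 0 in MEF KI (against 129 in WT), 2.94 higher on the centred log2 scale in MMTV-CAF SG and -1.53 in wound SG. In MEF SG neither value was called, with 1549 bp against 1739 bp and a score of 205 against 129, so the MEF side rests on the KI allele alone. The wound H3K27ac value was not called without centring, by the number of summits or with scores of at least 10. The difference between types was not tested, since each group has 1 library. With regions within 1 kb of a TSS, the widths were 957 bp in MEF KI, 227 and 1591 bp in WT and SG MMTV-CAF, and 1331 and 1868 bp in WT and SG wound fibroblasts, and the MMTV-CAF pair alone was called.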

How the results depend on the processing

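Of 116 alternatives, 52 gave the same value, 34 another value within 1.5 times the count or within the Wilson interval of the share, and 30 a value beyond that. An equal count can hold other calls: from MMTV-CAF to wound, H3K27ac called 1 member higher and 1 lower, and without centring or by the number of summits 0 higher and 2 lower. With H3K4me3 regions within 1 kb of a TSS, the members called numbered 1 in each of MEF KI, MEF SG and wound SG (beside 26%, 9.61% and 15.1% of all genes), and 5 (MEF to MMTV-CAF), 0 (MEF to wound) and 4 (MMTV-CAF to wound) between WT types (beside 24%, 17.7% and 27%). Without centring, H3K27ac called 6 in MEF KI (beside 82.3%), 0 in MEF SG (15.9%), 0 in wound SG (26.8%) and 2 from MEF to wound (31.1%), and width called 3 from MMTV-CAF to wound (45.7%). Counting summits gave 0 in MEF SG (21.3%), 0 in wound SG (25.7%) and 1 from MEF to MMTV-CAF (25.3%). Flanks of 25 kb gave 0 in MEF SG (8.14%), 1 from MMTV-CAF to wound (16.4%) and 17 PRRX1 summits in MMTV-CAF (6 of 9 members, beside 30%). Flanks of 5 kb gave 1 PRRX1 summit in MEF (1 of 9 members, beside 5.95%). Scores of at least 10 gave H3K27ac calls of 0 in wound SG (14.8%), 1 from MEF to wound (21.2%) and 0 from MMTV-CAF to wound (20.3%). They left 0, 2 and 1 PRRX1 summits in MEF, MMTV-CAF and wound fibroblasts. These lay at 0, 2 and 1 of 9 members, beside 2.99%, 5.62% and 2.91% of all genes. Lists of equal size gave 1 H3K27ac call from MMTV-CAF to wound (17.5%) and 4 PRRX1 summits in MMTV-CAF (3 of 9 members, beside 9.87%). In MMTV-CAF SG the share of summits present was 53.5% within 250 bp and 78.9% within 1 kb, beside 55.4% and 75.2% of all WT summits. Leaving out Mmp3 and Mmp13, chosen after seeing the data, gave 0 by width (25.2%) and 1 by H3K27ac (19.6%) from MMTV-CAF to wound. No paired analysis was possible because each group has 1 library. Depth is unknown, so a missing entry means only that the caller listed none, and list sizes and scores limit every comparison.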

Other observations

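Of the 38 further genes of pericellular proteolysis, 20 were called at least 2 times over the comparisons and marks, and the genes below were picked from these after their values were seen. Fap, the fibroblast activation protein, had a 959-bp H3K4me3 region at its TSS in MEF WT, a 326-bp region in MEF SG and none in MEF KI, MMTV-CAF or wound fibroblasts. Plau, the urokinase gene, had its widest region in MMTV-CAF WT at 5322 bp, against 2318 bp in MMTV-CAF SG, 2144 bp in MEF WT and 1667 bp in wound WT. Its H3K27ac score was 226 and 224 in WT and SG MMTV-CAF. Mmp23 had a region of 4706 bp in MMTV-CAF WT and none over its TSS in SG, with H3K27ac scores of 85.7 and 30.7, and its H3K27ac score was 97.2 and 64.8 in WT and SG wound fibroblasts.

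Adamts9, a proteoglycan-cutting protease gene, had a region of 3601 bp in MMTV-CAF WT and 5612 bp in SG. In WT, KI and SG MEF the H3K27ac scores were 80, 0 and 39.1. Mmp19 had a region of 3241 bp in MMTV-CAF WT, against 479 bp in MEF WT and 488 bp in wound WT. Mmp8 had an H3K27ac score of 257 in MMTV-CAF WT and 75.2 in SG, with no H3K4me3 region over its TSS in either; it lies in the stretch of chromosome 9 where the MMTV-CAF WT lists are dense. Mmp27, in the same stretch, had a region of 2255 bp in MMTV-CAF WT and 620 bp in SG, with H3K27ac scores of 225 and 75.2. Mmp8 and Mmp27 had equal H3K27ac scores in MMTV-CAF SG, MEF WT (40.9), MEF KI (9.25) and wound SG (13.2). They are thus not read as separate observations.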
